A study of Mus musculus with 27 samples.

Results

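The cells described here are a mesenchyme of the E11.5 mouse heart (E for embryonic day) in which transcripts of Inhba, Stmn4 and Meox1 outnumber those of Msx1, Car3 and Htra1. They came from droplet-based single-cell sequencing of 2 libraries, for each of which 6 C57BL/6 hearts were pooled, dissociated with trypsin and sorted for living cells. One library is labelled wild type (+/+). The other is labelled F/F, homozygous for a deletion of the whole Hand2os1 gene, a long non-coding RNA gene (also Hand2as or Uph) beside Hand2, in every cell of the embryo. Bulk E11.5 hearts of 3 F/+ (heterozygous) and 3 F/F libraries gave an independent set of samples. F/+ hearts carry 1 copy of the same deletion, so the bulk controls were not wild type.

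Members were chosen from the counts of unique molecular identifiers (UMIs, 1 per captured transcript) in each cell barcode, in this order: under 10% of UMIs from haemoglobin genes, under 0.5% from 5 muscle genes (Tnnt2, Actc1, Myl7, Myl4, Tnnc1), under 3 UMIs of the endothelial genes Pecam1, Cdh5 and Egfl7, under 4 of the epicardial genes Upk3b, Upk1b, Wt1, Krt7 and Lrrn4, under 3 of Rgs5, and at least 5 of Postn, Sox9, Twist1 and Papss2. A barcode that passed was a member when its UMIs of Inhba, Stmn4 and Meox1 exceeded those of Msx1, Car3 and Htra1. The opposite case is called the Msx1 side, and equal counts a tie. The gate kept 341 of 6032 barcodes, 176 of 2563 in the library labelled +/+ and 165 of 3469 in the library labelled F/F. The Msx1 side held 146 and 171 barcodes, and 42 and 34 barcodes were ties. Every class was defined by values of these same cells, so differences between classes are given as descriptions without a test.

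Cushion mesenchyme arises in the outflow tract and atrioventricular canal when endocardial cells, and in the outflow tract also neural crest cells, enter the gelatinous matrix between endocardium and myocardium. It builds the valves and septa, and TGF-beta, BMP, Notch and Wnt signals act in it. Inhba encodes the activin A subunit, Meox1 a homeobox factor best known from somites, Stmn4 a stathmin that binds tubulin, Postn and Tgfbi secreted matrix proteins of the fasciclin family, and Robo2 a receptor for Slit ligands. Msx1 is a homeobox factor tied to BMP signalling, Car3 a carbonic anhydrase and Htra1 a secreted protease. Hand2 and Twist1 are basic helix-loop-helix factors, which bind E-boxes.

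The start regions of 3 marker genes and of Acta2, which was high in the members, are shown because Hand2 and Twist1 belong to the E-box-binding factors. Each is the RefSeq window (GRCm38.p6) from 250 bases before to 50 bases after an annotated start, read 5′ to 3′ on the gene's strand, with E-boxes (CANNTG, which reads alike on both strands) in capitals. Of the 32851 windows in the table, 72.31% held at least 1 E-box and 17.61% at least 3. The Inhba window (chr13:16011601-16011900, plus strand, gene at 16004256 to 16031609) and the Tgfbi window (chr13:56609336-56609635, plus strand) held 0. The Robo2 window at its most upstream start (chr16:75447244-75447543, minus strand) held 1, which began 18 bases before the start. The Acta2 window (chr19:34255324-34255623, minus strand) held 3, which began 228, 220 and 182 bases before the start. Among scanned windows that are not shown, those of Postn held 0, and those of Cnn1, Tpm2 and the other Robo2 starts held 1 each. A match describes these letters and is not a measured binding site.
Inhba: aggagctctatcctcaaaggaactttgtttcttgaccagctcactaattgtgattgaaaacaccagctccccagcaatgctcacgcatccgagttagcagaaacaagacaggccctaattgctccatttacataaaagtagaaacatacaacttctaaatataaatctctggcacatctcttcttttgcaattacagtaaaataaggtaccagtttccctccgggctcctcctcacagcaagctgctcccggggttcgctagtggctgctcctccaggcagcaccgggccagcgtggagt
Tgfbi: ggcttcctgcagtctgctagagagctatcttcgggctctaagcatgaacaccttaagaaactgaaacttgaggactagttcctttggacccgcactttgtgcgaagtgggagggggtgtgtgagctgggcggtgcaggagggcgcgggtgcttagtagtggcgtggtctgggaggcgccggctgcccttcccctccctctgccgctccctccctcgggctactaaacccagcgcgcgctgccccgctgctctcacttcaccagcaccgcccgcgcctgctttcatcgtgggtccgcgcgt
Robo2: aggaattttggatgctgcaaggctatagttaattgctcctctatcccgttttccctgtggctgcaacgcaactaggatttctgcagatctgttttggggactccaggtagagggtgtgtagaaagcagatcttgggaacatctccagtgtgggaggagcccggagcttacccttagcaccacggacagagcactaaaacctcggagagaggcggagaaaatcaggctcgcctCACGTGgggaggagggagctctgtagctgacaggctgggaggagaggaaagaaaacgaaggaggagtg
Acta2: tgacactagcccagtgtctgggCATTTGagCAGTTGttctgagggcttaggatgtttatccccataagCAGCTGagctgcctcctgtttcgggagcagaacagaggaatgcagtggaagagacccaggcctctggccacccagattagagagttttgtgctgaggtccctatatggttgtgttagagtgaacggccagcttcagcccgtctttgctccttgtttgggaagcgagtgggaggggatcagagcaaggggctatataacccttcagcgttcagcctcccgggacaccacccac

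The libraries held 38302758 (+/+) and 51432290 (F/F) UMIs, and no barcode had fewer than 3746. Members had a median of 13874.5 and 14934 UMIs, and the Msx1 side 12189 and 13760, so both sides were similarly deep. Hand2os1, the deleted gene, had 1 UMI in the library labelled +/+ and 9 in the library labelled F/F, of which 0 and 1 lay in members; the bulk table lists it at 0 for every one of the 6 E11.5 libraries. Its RNA therefore checked no label. Y-linked genes had 850 UMIs in the +/+ library and 0 in the F/F library, so the pools also differed in sex. The libraries shared 18 barcode sequences, of which 0 and 2 were members and 1 and 1 lay on the Msx1 side. With 1 library per genotype there is no replicate, and the 95% intervals of single-cell values below cover counting error only.

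The 15 cushion mesenchyme markers were summed as a check of the label, and the 6 genes of the members' own label were higher in them than on the Msx1 side. Levels are CPM, the UMIs of a gene over all UMIs of the class and library, scaled to a common total. Inhba stood at 195 CPM in the +/+ library and 148 in the F/F library, against 32.9 and 25.8 on the Msx1 side. Stmn4 stood at 239 and 213 CPM against 16.7 and 14.96, and Meox1 at 228 and 199 against 56.6 and 40.3. These 3 genes chose the members, so their excess is given by construction. Postn was part of the mesenchyme step but not of the choice of side. It stood at 706 and 637 CPM in members and at 409 and 367 on the Msx1 side.

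Tgfbi and Robo2 were used by no step of the gate. Tgfbi had 669 CPM in the +/+ and 513 in the F/F members, against 249 and 227 on the Msx1 side, a ratio of 2.69 (interval 2.43 to 2.99) and 2.26 (2.04 to 2.504). Robo2 had 130 and 108 CPM against 60.9 and 56.1, a ratio of 2.14 (1.72 to 2.67) and 1.92 (1.55 to 2.38). In muscle-gene barcodes Tgfbi was at 31.1 and 22.9 CPM and Robo2 at 4.02 and 3.94. Summed over the 15 cushion mesenchyme markers, members held 5208 and 4505 CPM and the Msx1 side 5229 and 4547, against 716 and 628 in muscle-gene and 129 and 109 in haemoglobin-rich barcodes. All 15 had UMIs in each of these classes, and 4 of the 15 are genes of the mesenchyme step, so the sum in part restates the gate. Of the 11 that the gate did not use, Col1a1 alone was at least 2-fold higher on the Meox1-Inhba side in both libraries and none was lower. Of the 4 mesenchyme genes of the gate, Twist1 was the one lower in members in both libraries, at 336 and 199 CPM in members against 616 and 325 on the Msx1 side. Sox9, a cartilage and valve factor, was close between the sides, at 444 and 433 against 485 and 409.

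**Figure D1:**
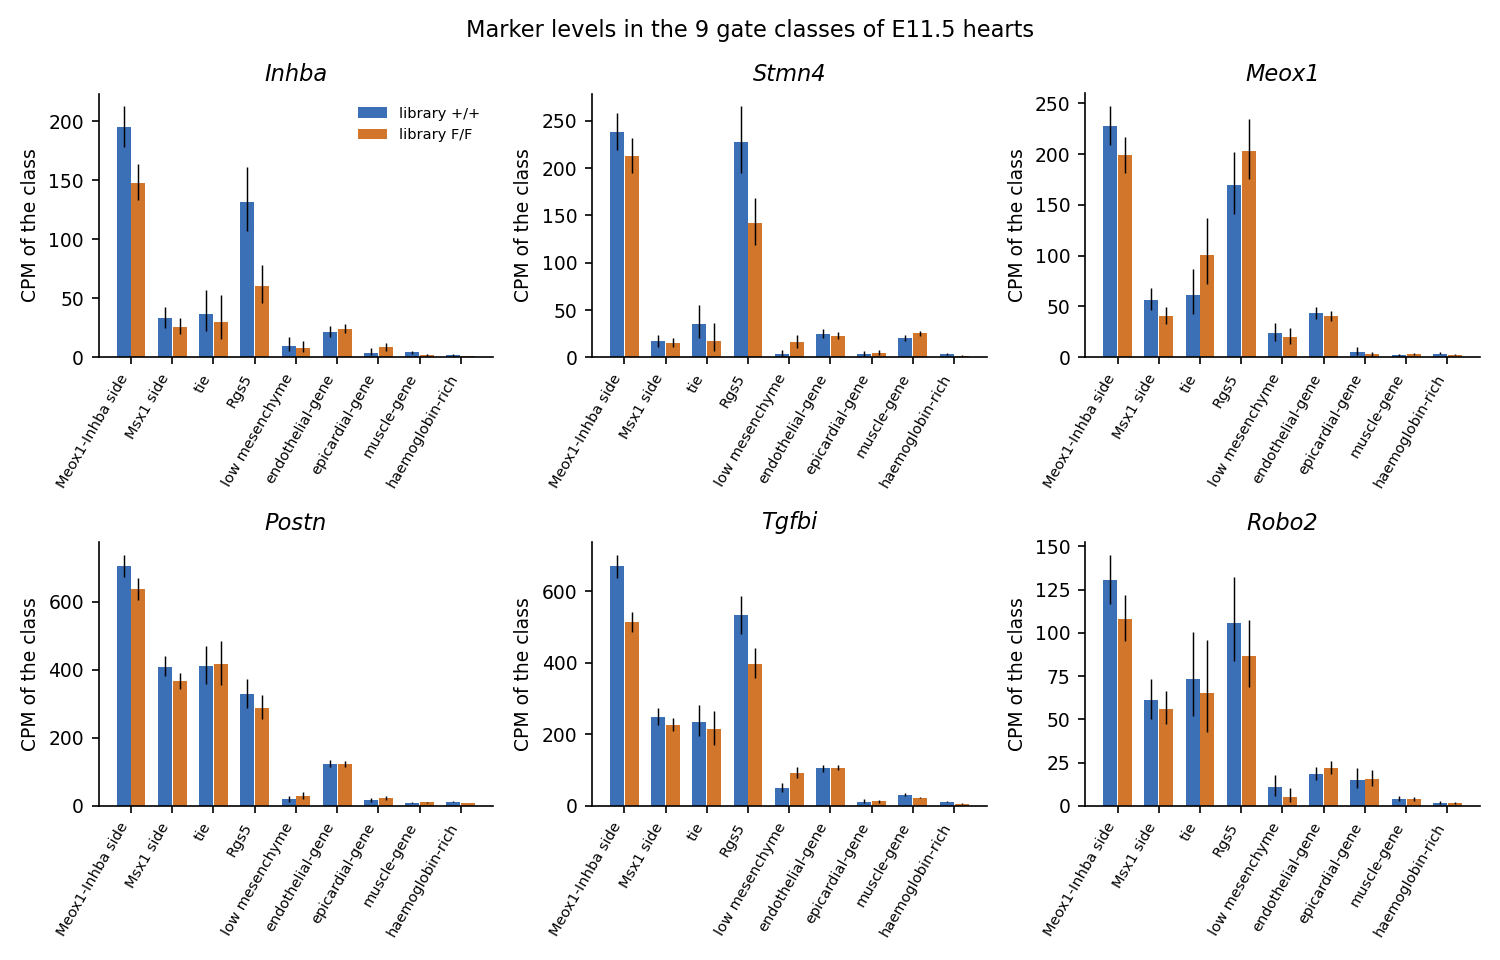
Levels of the 6 label genes in the 9 classes of the gate, as CPM of each class (vertical axis, from 0; bars are the +/+ and F/F libraries, error bars exact 95% Poisson intervals for counting error). Inhba reached 195 and 148 CPM in the Meox1-Inhba side and 32.9 and 25.8 in the Msx1 side, while the Rgs5 class held 132 and 60.5 CPM.

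When 1 side gene was withheld from the choice of side, its level could be read in sides that it had not chosen. Inhba stayed 4.45-fold (3.53 to 5.65) higher on the Meox1-Inhba side of the +/+ library and 3.75-fold (2.98 to 4.76) in the F/F library. Stmn4 was 6.89-fold and 5.68-fold higher, and Meox1 2.38-fold and 2.27-fold. On the opposite side, Msx1 was 5.19-fold and 7.58-fold higher and Htra1 3.52-fold and 4.33-fold, while Car3 differed by only 1.42-fold and 1.69-fold. Each of the 6 genes thus stayed higher on its own side when it was withheld, and Car3 differed least. The remaining genes of both sides still made the choice, so whether Inhba, Stmn4 and Meox1 rose together in the same cells was not tested.

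After each cell was thinned to 5000 UMIs, which left out 3 and 1 shallower members, an Inhba UMI was found in 46.2% (38.6 to 54.0) of +/+ and 45.1% (37.4 to 53.1) of F/F members. Before thinning the shares were 73.9% and 64.8%. In muscle-gene barcodes, with medians of 15016 and 14518 UMIs, the thinned shares were 1.61% and 0.826%. Stmn4 was found in 56.1% and 51.8% of thinned members and Meox1 in 62.4% and 53.0%. All 3 side genes were held by 88 of 176 members in the +/+ library and by 64 of 165 in the F/F library, and 30 and 43 members held only 1 of them. Of these, Meox1 was the only side gene in 18 and 18 members, Stmn4 in 5 and 16, and Inhba in 7 and 9.

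The edge of the gate was populated. Among barcodes that passed all other steps in the +/+ library, 22 members exceeded the Msx1 side by 1 UMI, 42 barcodes were tied and 21 lay 1 UMI on the other side; in the F/F library these numbers were 28, 34 and 32. A margin of 5 UMIs or more was held by 105 and 96 members, and 93 and 86 members had no UMI of Msx1, Car3 or Htra1. Tagln stood at 575 and 765 CPM in members with a margin of 1 or 2 UMIs, at 1132 and 689 with 3 or 4, at 1026 and 1006 with 5 to 9, and at 1827 and 1640 with 10 or more. It was highest at the widest margin in both libraries, without a steady order below it. The deeper cells had the wider margins, with medians of 12120 and 11736 UMIs at a margin of 1 or 2 and of 15605 and 17700 at 10 or more, and the part of depth in this difference was not tested.

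Beyond the gate genes, the members differed from the Msx1 side in genes that include several of the actin cytoskeleton. Of 6943 genes with at least 50 UMIs over both sides in each library, gate genes included, 81 (1.17%) were at least 2-fold higher in members in both libraries and 28 (0.403%) at least 2-fold lower. Without the gate genes these were 76 (1.1%) and 25 (0.361%) of 6925. Of the 15 with the highest smaller ratio, Tagln, Cnn1 and Tpm2 encode smooth muscle proteins of the actin filament. Tagln had 1268 and 1144 CPM in members against 292 and 318 on the Msx1 side, a ratio of 4.35 (3.97 to 4.77) and 3.59 (3.32 to 3.90). Cnn1 had 166 and 131 CPM against 33.96 and 36.2, a ratio of 4.89 (3.74 to 6.48) and 3.62 (2.84 to 4.64). Tpm2 had 285 and 232 CPM against 70.6 and 67.3. Hspb1, a small heat shock protein of the actin cytoskeleton, had 344 and 419 CPM against 88.4 and 96.0.

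Of the 10 mural and smooth muscle markers, 5 were measured outside the gate genes and 3 of these (Acta2, Tagln, Cnn1) were at least 2-fold higher in members in both libraries. The median log2 ratio of these 5 was 2.12 in the +/+ and 1.28 in the F/F library, beside 0.01 and 0.00 over all 6925 genes. Acta2, the smooth muscle actin, had 644 and 536 CPM against 112 and 220, so its ratio was 5.77 (4.99 to 6.70) in the +/+ library and 2.43 (2.20 to 2.70) in the F/F library. The pericyte receptor gene Pdgfrb did not follow, at 33.3 and 24.3 CPM against 29.1 and 26.2, and Notch3 was at 23.2 and 16.0 against 19.4 and 12.5. Myh11, which marks mature smooth muscle, had no UMI in members of either library, and Kcnj8, a pericyte gene, had none in the +/+ members. Cardiomyocytes of this stage also express Acta2 and Tagln, at 3203 and 3152 CPM and at 934 and 877 CPM in the muscle-gene class. The 13 cardiomyocyte markers summed to 1560 and 2100 CPM in members and to 1118 and 1696 on the Msx1 side, and to 46397 and 46911 in the muscle-gene class. Of that sum Actc1, an actin of heart and early smooth muscle and a gate gene, made up 526 and 716 CPM in members and 152 and 292 on the Msx1 side. Members held more Tagln and less Acta2 than the muscle-gene barcodes, and the part of muscle RNA in either gene was not tested.

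**Figure D2:**
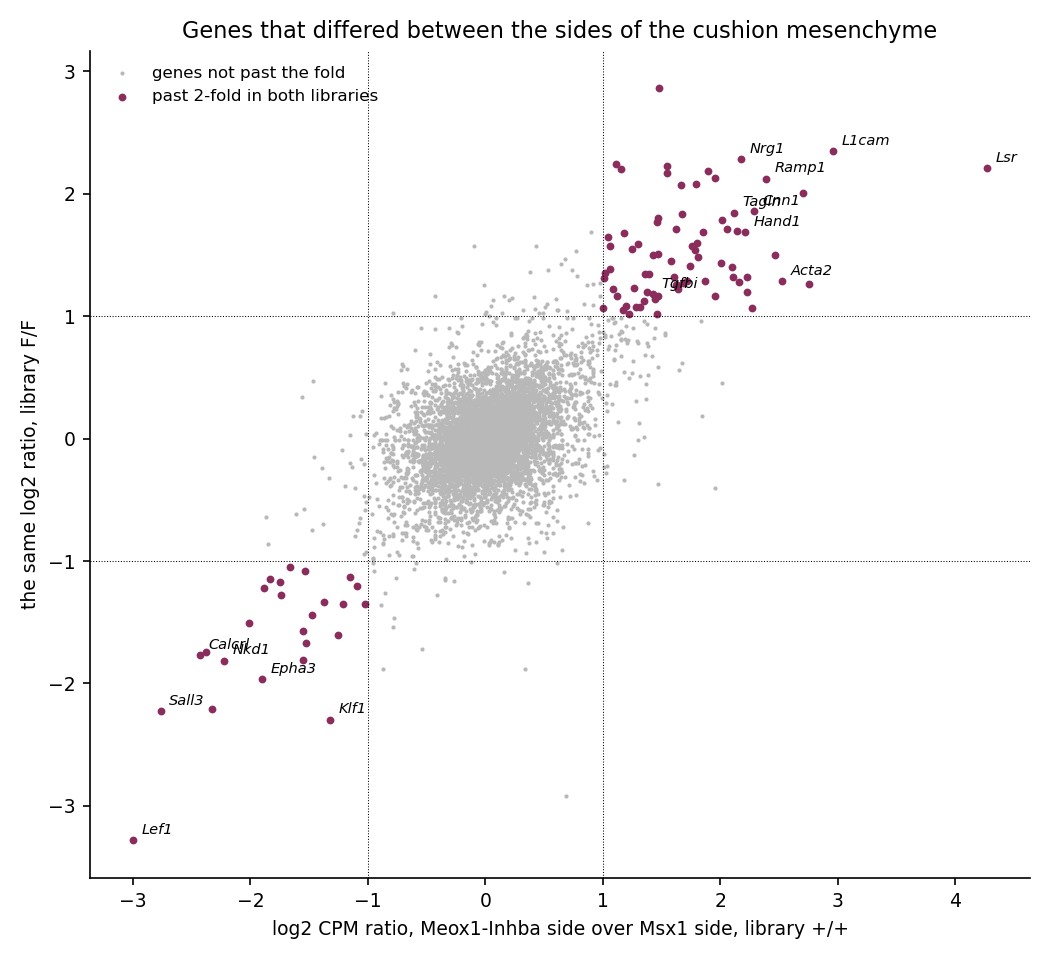
Each point is 1 of the 6925 genes outside the gate: the log2 ratio of CPM, Meox1-Inhba side over Msx1 side, in the +/+ library (horizontal) and in the F/F library (vertical), with dotted lines at 2-fold; genes at 0 on a side are not drawn. The 76 genes past the upper lines include Tagln, Cnn1, Acta2 and L1cam, and the 25 past the lower lines are led by Lef1.

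The smooth muscle transcripts were spread over the members and uneven among them. In cells thinned to 5000 UMIs, the 10 genes summed to a median of 7 UMIs in +/+ and 6 in F/F members, with a highest value of 61 and 40, against medians of 1 and 2 on the Msx1 side. Only 8 of 173 and 5 of 164 thinned members had none, against 46 of 140 and 38 of 169 Msx1-side cells. At least 20 UMIs were held by 25 members of the +/+ library (14.5%, interval 9.58 to 20.6) and 21 of the F/F library (12.8%, 8.10 to 18.9). On the Msx1 side 2 cells of each library reached that count.

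**Figure D3:**
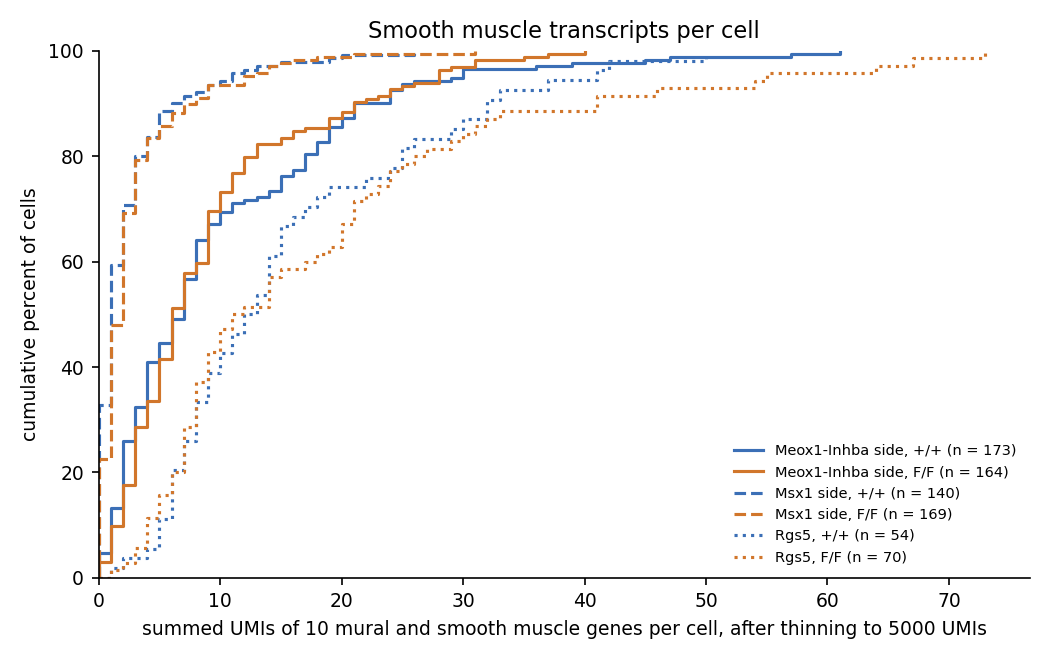
Cumulative percent of cells (vertical) by summed UMIs of the 10 mural and smooth muscle genes per cell after thinning to 5000 UMIs (horizontal), for 3 classes in each library. The Msx1 side lies left, with medians of 1 and 2 UMIs, members in the middle, with 7 and 6, and the Rgs5 class right, where 61.1% and 57.1% of cells held at least 10. Rgs5 is itself a mural gene. The gate required at least 3 UMIs of it in the Rgs5 class and under 3 elsewhere here, so it in part set that place.

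Other genes of the 15 had no list of their own. L1cam, a neural cell adhesion molecule, had 50.5 and 31.7 CPM against 6.47 and 6.23, a ratio of 7.81 (4.32 to 15.5) and 5.08 (2.90 to 9.51). Nrg1, the neuregulin ligand of ErbB receptors, had 24.5 and 26.3 CPM against 5.39 and 5.40. Ramp1, a subunit of the receptor for calcitonin gene-related peptide, had 48.1 and 54.3 CPM against 9.16 and 12.5. Its partner Calcrl, among the 15 lowest, stood at 4.81 and 6.58 CPM in members against 25.9 and 22.4. Cdkn2b, an inhibitor of cyclin-dependent kinases, had 28.1 and 31.7 CPM against 8.09 and 7.48. Lsr, Cdc42ep3, Kif26a, Dlg2, Cdh3, Itga9 and Hand1 completed the 15, with ratios from 3.22 to 19.3. The highest of these, of Lsr in the +/+ library, rested on 2 UMIs on the Msx1 side. Stmn3, a paralog of the gate gene Stmn4 below the limit of 50 UMIs and chosen after its values were seen, had 42 and 57 UMIs in members and 2 and 4 on the Msx1 side. Edn1, the endothelin ligand, is not among the 15 and is named by its difference between the libraries; it had 262 and 87.2 CPM in members against 84.1 and 37.4 on the Msx1 side.

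TGF-beta and activin genes did not differ alike between the sides. Of the 2 ligands measured outside the gate, Tgfb2 had 249 and 231 CPM against 107 and 132, a ratio of 2.32 (1.98 to 2.74) and 1.75 (1.52 to 2.02), and Tgfb1 was low on both sides at 34.1 and 24.7 CPM against 35.0 and 17.0. Among 6 inhibitors, Fstl3, which binds activins, passed 2-fold in both libraries, at 59.3 and 51.8 CPM against 25.9 and 24.5, and the related Fstl1 stood at 628 and 510 CPM against 367 and 326. Of 10 transducers and targets, Tgfbi, Tagln and Col1a1 passed, and the median log2 ratio of the 10 was 0.57 and 0.52. The accessory receptor Eng, also an endothelial gene, was lower in members at 54.5 and 40.7 CPM against 101 and 105, and none of the 3 measured receptors passed 2-fold in both libraries. In the BMP list of 12 genes Id4 passed upward and Msx2 downward. Msx2 had 7.22 and 9.05 CPM in members against 17.3 and 27.4, and Bmp4 had 81.4 and 60.9 against 45.3 and 44.5.

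The measured Wnt genes had a median log2 ratio of 0.62 in the +/+ and 0.61 in the F/F library. Over all genes it was 0.01 and 0.00. Differences of at least 2-fold went both ways. Of 12 measured, the ligand Wnt5a and the secreted antagonist Frzb were at least 2-fold higher in members, while Lef1, a nuclear effector of Wnt signalling, and Nkd1, a feedback inhibitor of the pathway, were at least 2-fold lower. Wnt5a had 75.8 and 62.1 CPM against 24.8 and 24.9, and Frzb 32.5 and 27.6 against 9.70 and 10.4. Lef1 had 7.22 and 7.40 CPM against 57.7 and 71.9, a ratio of 0.125 (0.0714 to 0.207) and 0.103 (0.0596 to 0.168). The larger of these was the lowest such value among the 6925 genes outside the gate. Nkd1 had 17.6 and 28.4 CPM against 82.5 and 99.7. After thinning, a Lef1 UMI was found in 4.05% and 6.10% of members and 24.3% of Msx1-side cells in both libraries; the share was 0.548% and 0.408% in haemoglobin-rich barcodes and 8.05% and 8.26% in muscle-gene barcodes. Before thinning it was 9.09% and 8.48% of members.

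The other genes lowest in members included Sall3, a zinc finger factor, at 7.62 and 9.87 CPM against 51.8 and 46.1, and Epha3, an ephrin receptor of cushion cells, at 12.4 and 11.51 against 46.4 and 44.9. Ptprb, an endothelial phosphatase, stood at 13.2 and 18.9 against 53.4 and 53.6. Tnfrsf19, Gm14226, Matn4, Ada, Gsta4, Gngt2, Sncaip, Klf1 and Tfb1m followed. The 12 endothelial and endocardial markers summed to 138 and 119 CPM in members and 168 and 151 on the Msx1 side, against 1376 and 1366 in the endothelial-gene class, and their part in Ptprb and Calcrl was not tested.

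Among cushion transcription factors, Twist2, Prrx1 and Hand1 were at least 2-fold higher in members and Msx2 lower, of 23 measured, with a median log2 ratio of 0.20 and 0.10. Twist2 had 63.7 and 51.8 CPM against 24.8 and 20.4, opposite to its paralog Twist1. Prrx1 had 103 and 92.1 CPM against 45.8 and 44.5. Hand1 was sparse, at 22.4 and 16.0 CPM against 4.85 and 4.99, from 56 and 39 UMIs. Hand2 was close between the sides, at 103 and 159 CPM against 87.3 and 131, a ratio of 1.18 (0.965 to 1.445) and 1.22 (1.045 to 1.42). Gata4, Gata6, Tbx20, Snai1 and Sox11 were likewise within 1.25-fold in both libraries.

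Collagens had a median log2 ratio of 0.31 (+/+) and 0.05 (F/F), and matrix proteoglycans and glycoproteins of -0.04 and -0.04. The 15 matrix crosslinkers and proteases measured had 0.38 and 0.23, and none of them passed 2-fold in both libraries. Col1a1 and Col2a1 passed 2-fold of 14 collagens, at 234.5 and 176 CPM against 111 and 75.2 for Col1a1 and 77.0 and 63.7 against 21.0 and 26.2 for Col2a1. Of 23 proteoglycans and glycoproteins, Tnc was higher in members and Matn4 lower. Hapln1, which links hyaluronan to versican in the cushion jelly, was at 498 and 561 CPM against 943 and 947, so the Msx1 side held 1.89-fold and 1.69-fold more. Versican itself (Vcan) stood at 765 and 597 CPM against 616 and 615. Crabp1, a retinoic acid binding protein and a neural crest gene, was 2.77-fold and 2.84-fold higher in members at 91.0 and 82.7 CPM. The 16 neural crest genes in the table, Crabp1 included, summed to 174 and 169 CPM in members and to 100.3 and 92.3 on the Msx1 side. Crabp1 alone gave 91.0 and 82.7 CPM of the members' sum. The sum was higher in the Rgs5 class, at 195 and 254 CPM. It was lower than in members in the other classes, with 155 and 139 in the muscle-gene class. Only 2 of the 16 had enough UMIs to be compared gene by gene. None of the 20 S phase and 20 mitosis genes passed 2-fold in either direction in both libraries, and a thinned member held a median of 6 and 7 S phase UMIs against 6 and 9 on the Msx1 side.

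The Rgs5 class, 55 and 71 barcodes that the gate had set aside for a mural gene, also held the side genes. Among its barcodes that passed every other step, 27 in the +/+ library and 41 in the F/F library lay on the Meox1-Inhba side, and 1 and 3 on the Msx1 side. The class held Inhba at 132 and 60.5 CPM, against 195 and 148 in members, Stmn4 at 228 and 142, Meox1 at 169 and 203, and Tgfbi at 532 and 398. It stood apart in Hand1, at 173 and 194 CPM against 22.4 and 16.0 in members, and in Isl1, a factor of the second heart field, at 94.9 and 68.1 against 8.02 and 11.9. Postn was lower there, at 329 and 288 CPM. Rgs5 itself had no UMI in 122 of 176 and 127 of 165 members, and 14 and 12 members sat just under the limit with 2 UMIs.

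Over the 18 points of 9 classes in 2 libraries, the genes whose CPM followed the summed CPM of Inhba, Stmn4 and Meox1 most closely, of 5055 compared, were Nudt18 (Spearman rho 0.979), Tgfbi (0.969), Twist2 (0.967), Emc4 (0.957) and Mphosph6 (0.955). The points share libraries and cells with the gate, so this is a description. Emc4 varied little between the sides, at 96.6 and 95.8 CPM against 90.6 and 84.8.

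The share of members was lower in the library labelled F/F. Members made up 6.87% (5.92 to 7.92) of +/+ barcodes and 4.76% (4.07 to 5.52) of F/F barcodes, and 11.2% (9.69 to 12.9) of 1570 and 7.58% (6.50 to 8.77) of 2177 barcodes that were not haemoglobin-rich. As a share of both sides they were 54.7% (49.0 to 60.2) and 49.1% (43.6 to 54.6), intervals that overlap. When the gate was applied to barcodes thinned to 5000 UMIs, this last share was 54.5% and 57.4%, so its direction turned. The muscle-gene class took 24.9% and 29.3% of barcodes and the epicardial-gene class 4.60% and 5.94%, so dissociation, sorting and genotype cannot be told apart with 1 pool each.

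Within members, the 6 label genes were all somewhat lower in the library labelled F/F, and none passed the fold of 1.5. Of 5251 genes with at least 100 UMIs over the members of both libraries, 46 (0.876%) were at least 1.5-fold higher in F/F and 179 (3.41%) at least 1.5-fold lower. Divided by the ratio in barcodes of neither side, 31 of the 46 and 60 of the 179 were still past the fold. That division was added after seeing the data. The ratio of F/F to +/+ was 0.76 (0.66 to 0.87) for Inhba, 0.77 (0.71 to 0.82) for Tgfbi, 0.83 for Robo2, 0.87 for Meox1, 0.89 for Stmn4 and 0.90 for Postn. On the Msx1 side the same ratio was 0.78 for Inhba and 0.91 for Tgfbi, while that of Meox1 was lower there than in members. The median log2 ratio of the label genes was -0.24 in members (6 genes). On the Msx1 side it was -0.16 (5 genes with enough UMIs). Inhba, Stmn4, Meox1 and Postn are genes of the gate.

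The genes that differed most between the libraries in members differed the same way in 6 to 9 of the 9 classes. The 10 highest in F/F were 8 genes of the heart muscle filament or its metabolism (Tnnc1, Myl4, Myl3, Myl7, Myh7, Myl2, Tnni3 and Fabp3), the heat shock gene Cryab and the non-coding Gm26917. The log2 ratio of Gm26917 changed sign when divided by the ratio in barcodes of neither side. Tnnc1 stood at 34.1 CPM in +/+ and 83.9 in F/F members, a ratio of 2.46 (1.90 to 3.21), and Myl4 at 66.9 and 152, a ratio of 2.27 (1.89 to 2.75). In the haemoglobin-rich class, which should not make them, the ratios were 2.09 and 1.80, and in the muscle-gene class itself 1.09 and 1.10. Muscle-gene barcodes were 24.9% of the +/+ and 29.3% of the F/F library. Whether free muscle RNA set these ratios was not tested.

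The 10 lowest in F/F were also lower elsewhere. Snhg9, a small nucleolar RNA host gene, had 205 CPM in +/+ and 43.6 in F/F members, a 4.71-fold (3.81 to 5.86) lower level, and was past 1.5-fold in 9 of 9 classes, as were Pbld2, Edn1, Nmt1, Ikzf5, Naa15, Dync1i2 and Senp5. B230312C02Rik and Rrm2b were lower in 8 of 9 classes. Edn1 had 262 CPM in +/+ and 87.2 in F/F members, a ratio of 0.333 (0.284 to 0.389), beside ratios from 0.23 in the Rgs5 class to 0.50 in the endothelial-gene class. In bulk hearts Edn1 had 2.15, 4.17 and 0.76 FPKM in F/+ and 5.47, 2.46 and 2.59 in F/F, values that overlapped.

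**Figure D4:**
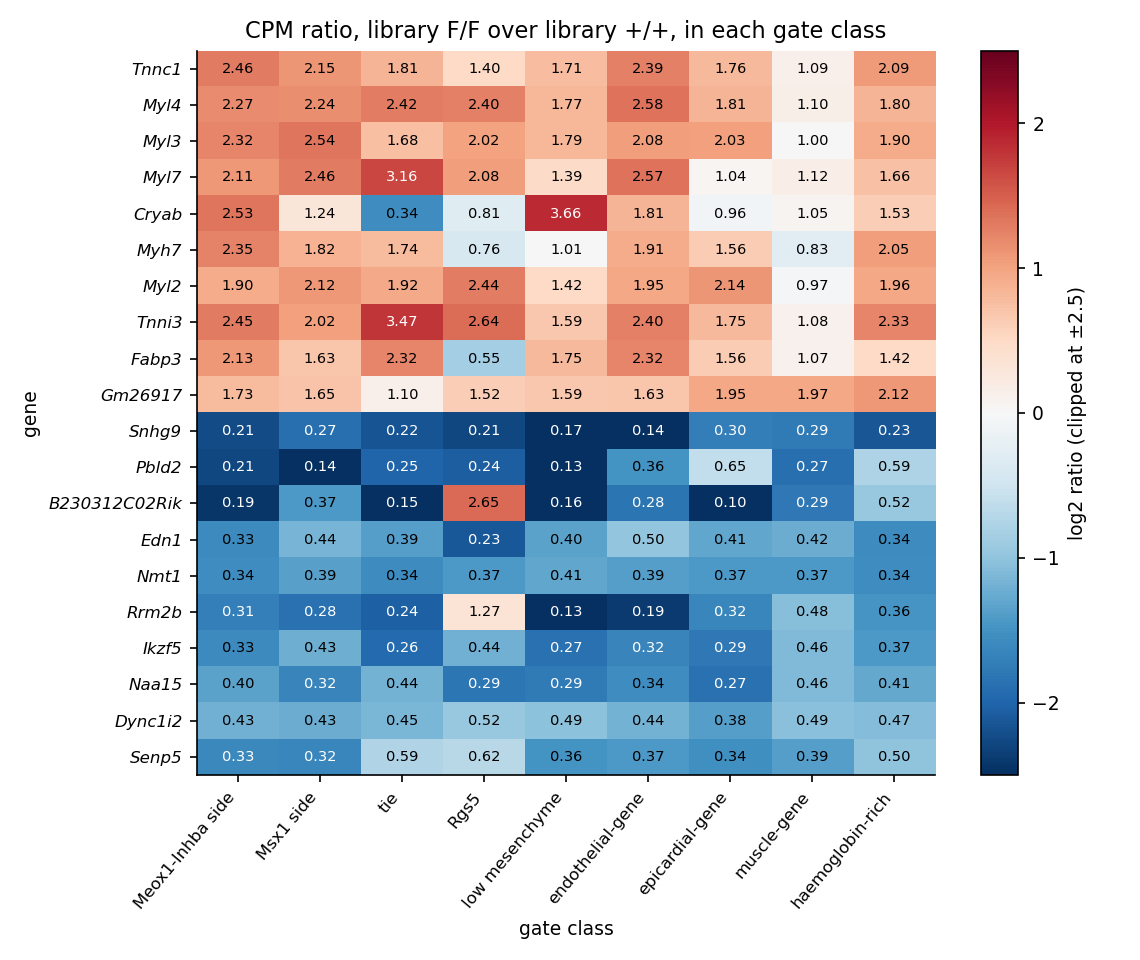
Ratio of CPM, library F/F over library +/+, for the 20 genes with the clearest difference in members (rows) in each of the 9 gate classes (columns); numbers are ratios and the colour is their log2. Tnnc1 was 2.46 in members and 1.09 in the muscle-gene class, and Snhg9 lay between 0.14 and 0.30 in every class.

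Of the 46 genes higher in F/F members, 34 were also above 1 in the barcodes of neither side and 3 past 1.5-fold there, beside 57.9% and 0.114% of all 5251 genes. Of the 179 lower, 161 were below 1 and 42 past 1.5-fold, beside 42.1% and 1.03%. On the Msx1 side 37 of the 46 and 115 of the 179 had enough UMIs, and of those 10 and 45 were past the fold in the same direction, where 1.07% and 2.63% of 4748 genes passed. Within the lists, 5 of 8 cardiomyocyte genes were higher in F/F members, with a median log2 ratio of 1.13 beside -0.01 over all 5251 genes. Of these 8, Tnnt2, Actc1, Myl7, Myl4 and Tnnc1 are genes of the gate's muscle step; of the 3 others Myh7 and Tnni3 passed, at ratios of 2.35 and 2.45, and Tnni1 was at 1.04. Of 22 cushion transcription factors Hand2 was higher and Twist1, Nfatc1 and Scx lower. Hand2 stood at 103 CPM in +/+ and 159 in F/F members, a ratio of 1.54 (1.32 to 1.82), against 1.499 on the Msx1 side. In the other classes the ratio ran from 0.786 (0.613 to 1.01) in the Rgs5 class, 1.18 in the epicardial-gene class and 1.24 in ties to 2.11 in the endothelial-gene, 2.17 in the haemoglobin-rich and 2.68 in the low mesenchyme class. Twist1 stood at 336 and 199 CPM, a ratio of 0.59 (0.53 to 0.67), against 0.53 on the Msx1 side and from 0.44 to 1.15 in the other classes. Divided by the ratio in barcodes of neither side, both changed sign, to a log2 of -0.080 for Hand2 and 0.13 for Twist1. Of the activin and TGF-beta genes with enough UMIs in members (3 ligands, 2 receptors, 6 inhibitors, 11 transducers and targets) Ctgf alone passed the fold, lower in F/F, and of 9 such BMP genes 0 passed; the other genes of these lists were too sparse.

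In whole E11.5 hearts, samples that the gate did not use, the label genes did not separate F/F from F/+. In bulk tissue fewer cells of a type and less RNA per cell cannot be told apart. Values are FPKM (fragments per kilobase of transcript, scaled to the library's size), tested by limma on log2(FPKM + 1) with p-values adjusted over all genes (Benjamini-Hochberg); fold changes on that scale understate those of low genes. Of 11491 genes, 1 (0.0087%) passed an adjusted p of 0.05, and 502 had an unadjusted p under 0.05, 257 higher and 245 lower in F/F. The single call was the microRNA gene Mir6236, listed at 0 in the 3 F/+ libraries and at 10852, 27597 and 21247 FPKM in F/F. The cause of this all-or-none difference was not tested. Fits with array weights or with the replicate block called more genes, with the counts given at the end of the text.

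Inhba had 3.09, 3.53 and 1.74 FPKM in F/+ hearts and 7.37, 0.73 and 3.34 in F/F hearts. The lowest and the highest heart were both F/F, and the limma log2 difference was 0.10 (SE 0.52, adjusted p = 0.999). Meox1 had 5.58, 5.08 and 6.76 FPKM in F/+ and 7.57, 6.17 and 3.42 in F/F, a difference of -0.06 (SE 0.30). Stmn4 had 2.18, 4.61 and 6.06 against 9.49, 5.80 and 3.87, a difference of 0.49 (SE 0.38). Tgfbi had 29.1, 41.8 and 24.2 in F/+ and 26.9, 27.2 and 18.7 in F/F, a difference of -0.35 (SE 0.24). Postn and Robo2 differed by -0.065 (SE 0.29) and 0.32 (SE 0.40), and the groups overlapped for all 6 genes. With SEs from 0.24 to 0.52, only large changes could have been seen.

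Tagln, high in the members, had 249, 303 and 264 FPKM in F/+ and 370, 411 and 314 in F/F. All 3 F/F hearts lay above all 3 F/+ hearts, by a log2 difference of 0.42 (SE 0.15), which did not pass the limma test over all genes (adjusted p = 0.999, unadjusted p = 0.0219). In the members of the F/F library Tagln was not higher, at 1144 against 1268 CPM. Tnnc1 and Myl4 were higher in bulk F/F by 0.42 (SE 0.18) and 0.43 (SE 0.15), also without passing the limma test (adjusted p = 0.999); the groups overlapped for Tnnc1 and not for Myl4. Hand2 differed by 0.03 (SE 0.18). Summed FPKM ran from 376930 to 457462 in the F/+ libraries and from 442355 to 586795 in the F/F libraries. None of these differences was corrected for the sums.

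**Figure D5:**
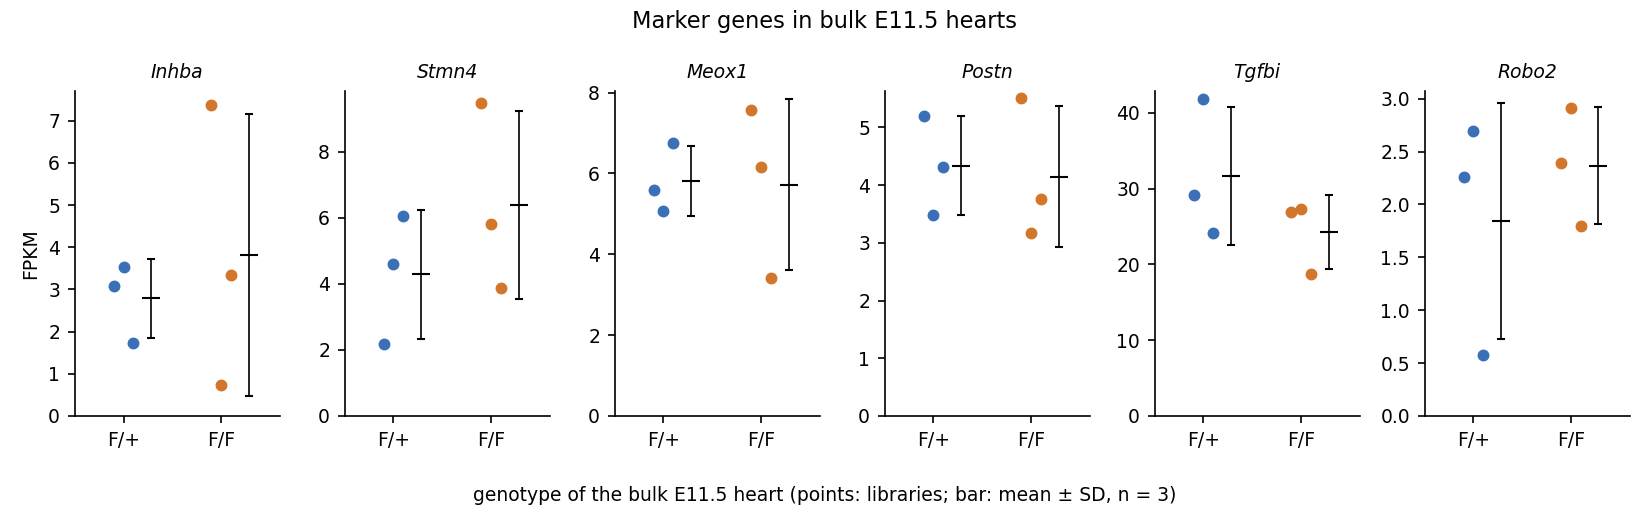
FPKM of the 6 label genes (vertical, from 0) in bulk E11.5 hearts of F/+ and F/F embryos; points are libraries, and the bar beside them is the mean ± SD (n = 3). The groups overlap in every panel: Inhba ranged from 1.74 to 3.53 in F/+ and from 0.73 to 7.37 in F/F.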

How the data were processed

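The authors deposited the single-cell data as whole UMI counts for each gene in each barcode; per the submitters' processing notes Cell Ranger and mm10 were used, with no version given. Bulk values are FPKM as deposited by the authors, a unit inferred from the values since no header names it; the notes name CASAVA, TopHat, TopHat2 2.0.11 and mm9. Bulk depth is unknown.

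The gate was applied in its given order, UMIs were added up within each class of each library, and CPM, ratios and shares carry exact Poisson, conditional binomial and Clopper-Pearson intervals at 95%. A gene was counted between the sides at 2-fold in both libraries (50 UMIs in each), and between libraries at 1.5-fold (100 UMIs). Named genes were the 10 genes of the mesenchyme and side steps with Tgfbi, Robo2 and Hand2; the 15 with the highest smaller and the 15 with the lowest larger ratio between sides; the 10 with the highest lower bound and the 10 with the lowest upper bound of the ratio between libraries; the 2 most and 2 least abundant or most different genes of each list; and the 5 genes most like the side genes. Haemoglobin, mitochondrial, ribosomal and sex-linked genes were left out of these rankings. Other genes named were chosen after their values were seen. The members, lists and rules were chosen with earlier results of these data known.

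Bulk E11.5 libraries were fitted with limma 3.58.1 (R 4.3.3, intensity trend, mean of at least 1 FPKM); E16.5 and 8-week libraries were not used here. Nothing states that replicates came from separate litters, so p-values measure the spread between these samples. Scrublet in scanpy 1.11.5 marked 9 and 3 barcodes (0.351% and 0.0865%), too few to be working, so doublets were kept and, as an alternative, the highest scores were removed at 0.8% per 1000 barcodes. Ratios and limma were tested on simulated data. Promoter windows and gene places came from RefSeq tables. Stmn4, Meox1 and Tagln had no window there.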

Additional observations from a re-analysis of the deposited data

How the results depend on the processing

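Raising the limit to 200 UMIs left 23 genes higher and 2 lower between the sides, and 11 higher and 73 lower between the libraries, since fewer genes were then tested. Divided by the ratio in barcodes of neither side, which was added after seeing the data, 85 genes were lower in F/F members, and Gm26917 (log2 -0.15), Hand2 (-0.080) and Twist1 (0.13) changed sign; the cause was not tested. A side margin of 2 UMIs lowered the members to 3.95% of F/F barcodes, since it takes fewer cells. Applying the gate to barcodes thinned to 5000 UMIs raised their share of both sides in F/F to 57.4% (main value 49.1%), while in +/+ it stayed at 54.5%; the cause was not tested. Thus the lower share of members among both sides in F/F turned around under that gate. The other 45 values of shares and counts stayed within counting error or 1.5 times the reported ones. Of single-gene log2 ratios, 385 between sides and 128 between libraries moved by less than counting error, and 23 and 14 by more; no ratio between sides reversed.

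In bulk, same-numbered F/+ and F/F libraries did not deviate together (correlations of -0.036, -0.017 and 0.082), so the numbers do not pair the samples; with the replicate block limma called 2 genes in place of 1. Array weights, added after seeing the data, gave 19 calls, and leaving out each library gave 1 to 2 (2 without F/+ replicate 3). Leaving out libraries changed the sign of these log2 differences. Inhba ranged from -0.43 to 0.70 and was negative without F/+ replicate 3 or F/F replicate 1. Meox1 ranged from -0.27 to 0.21 (positive without replicate 3 of either group), Postn from -0.25 to 0.074 (positive without F/+ replicate 1 or F/F replicate 2), Robo2 from -0.056 (without F/+ replicate 3) to 0.56, and Hand2 from -0.13 to 0.15 (negative when F/+ replicate 1 or F/F replicate 2 was dropped). Scaling to the upper quartile gave -0.048 for Hand2. Genes near 50 UMIs per library are limited by counting error, and differences between the libraries by having 1 pool of each genotype.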
